A study of Mus musculus with 6 samples.

Results

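A set of 6 genes linked to the glands of the mouse uterus, Foxa2, Foxa1, Prss28, Prss29, Spink1 and Ttr, were followed in uterine epithelium of early pregnancy. They were taken by name, as every probe set whose platform gene symbol was one of the 6, which gave 11 of the 45101 probe sets on the array. Prss29 had 3 probe sets, Ttr had 4, and the other 4 genes had 1 each. Each of the 6 arrays measured the epithelium of 1 sample, and each group held 2 arrays. Wild-type (WT) females gave arrays 302 and 303 on day 1 of pregnancy, when the vaginal plug is found, and arrays 277 and 284 on day 4. Arrays 253 and 281 came from Sox17 heterozygous females on day 4, written Sox17GFP/+ in the design text, in which GFP marks the altered Sox17 copy. Strain and age are not given in the labels, and the labels do not say whether glands came away with the epithelial sheet. The labels do not say that samples of a group are separate animals, so the p-values below measure the spread between these samples and no more.

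Uterine glands are tubes of epithelium that grow from the luminal surface into the stroma and secrete the factors that prepare the uterus for the embryo. FOXA2, a forkhead transcription factor that opens chromatin, marks the glands in the adult mouse uterus and is needed for them to form. FOXA1 is its close relative, best known from liver, prostate and breast epithelium. PRSS28 and PRSS29, the implantation serine proteinases, SPINK1, an inhibitor of trypsin, and TTR, a carrier of thyroxine and of retinol-binding protein, are secreted proteins.

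Most signals of the gland genes were low. Of the 66 values (11 probe sets on 6 arrays), 6 were above a signal of 200 and 47 were below 50. Prss29, Foxa1 and Foxa2 were above 200 on at least 1 array, and Prss28, Spink1 and Ttr were not. Prss29 passed 200 on 4 arrays (up to 1036), Foxa1 on 1 day 1 array (307), and Foxa2 on 1 WT day 4 array (220). The highest signals of the other 3 genes were 173 for Spink1, 134 for Ttr and 22.4 for Prss28. Of the 11 gland probe sets, 3 passed 200 on at least 1 array, against 52.4% of the 34945 probe sets with a single gene symbol. On single arrays, 34.3% to 40.6% of all probe sets were above 200 and 27% to 44.6% were below 50. The files used hold no present or absent call for a probe set, and a low signal may be background.

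**Figure D1:**
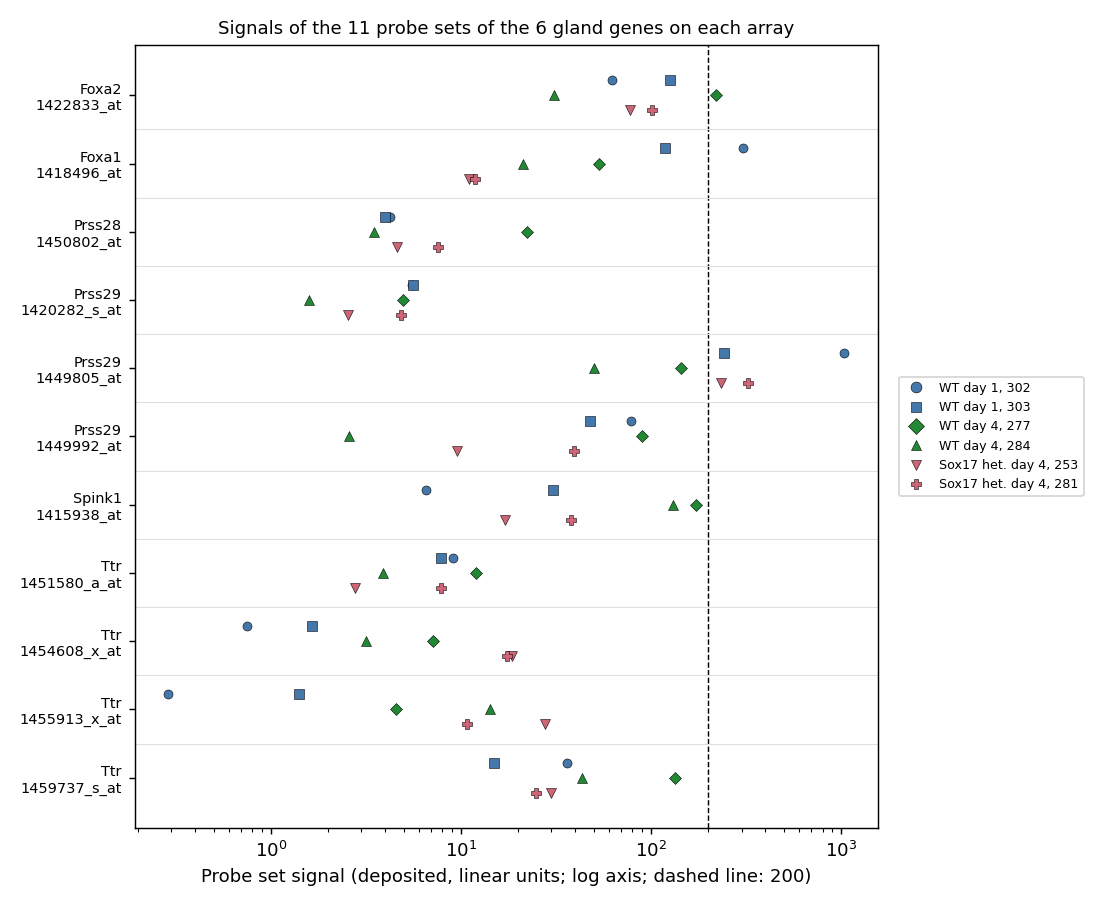
Deposited signal (linear units, log axis) of each of the 11 probe sets on each of the 6 arrays. Colours are the 3 groups, symbols the arrays, and the dashed line marks 200. Points to the right of the line belong to Prss29 (4 arrays), Foxa1 (1 array) and Foxa2 (1 array).

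All arrays were scaled to a trimmed mean of 500, but WT day 4 array 277 read higher than the others in its dim range, where these genes lie. Its median signal was 138 against 66.2 to 78.0 on the other 5 arrays. It gave the highest value for 6 of the 11 probe sets, and for 3 of 11 after quantile normalization, which gives all arrays the same distribution. Over all probe sets the median log2 change was 0.24 for WT day 4 minus day 1 and -0.18 for heterozygous minus WT on day 4. It was 0.06 and 0.00 after quantile normalization, and 0.03 and 0.09 with every array centred on its median. As a rough floor, chosen after the values were seen, 43 probe sets of olfactory receptor genes, which are not known as uterine genes, were read on the same arrays. Their 95th percentile was 188 on array 277 and 50.8 to 68.9 on the other 5, and 0 of 43 passed 200 on any array. Probe sets differ in how strongly they respond, so this floor is only a guide.

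The 3 contrasts were tested in 1 limma fit over the 34945 probe sets, with Benjamini-Hochberg adjustment. They share arrays and are not independent. For WT day 4 minus day 1, 0 of the 11 gland probe sets passed an adjusted p under 0.05, where 9.19% of all probe sets passed. At an unadjusted p under 0.05 there were 5 of 11, against 26.7% of all probe sets. For heterozygous minus WT on day 4, 0 of 11 passed, and so did 0% of all probe sets, the smallest adjusted p being 0.192. At an unadjusted p under 0.05 there were 2 of 11, against 12% of all. For heterozygous day 4 minus WT day 1, which mixes genotype and day, 2 of 11 passed, Foxa1 lower and 1 Ttr probe set higher, against 6.07% of all probe sets (2.89% lower and 3.18% higher). The median log2 change of the 11 was -0.10, 0.09 and -0.01 in the 3 contrasts, against 0.24, -0.18 and -0.01 over all probe sets. With an intensity trend in the estimate of spread, limma called 2, 0 and 1 of the 11, where it called 20.7%, 2.37% and 17.1% of all probe sets.

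The 2 groups of a contrast did not overlap for 7 of 11 gland probe sets between WT day 4 and day 1 (4 higher and 3 lower on day 4), where 54.5% of all probe sets did not (32.4% higher and 22.1% lower). Between heterozygotes and WT on day 4 the groups were apart for 5 of 11 (2 higher and 3 lower), against 46.4% of all (18.4% and 28.0%). Between heterozygous day 4 and WT day 1 they were apart for 6 of 11 (3 higher and 3 lower), against 60.3% of all (30.1% and 30.2%). With 2 arrays against 2, separation of this kind was thus about as frequent among all probe sets.

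**Figure D2:**
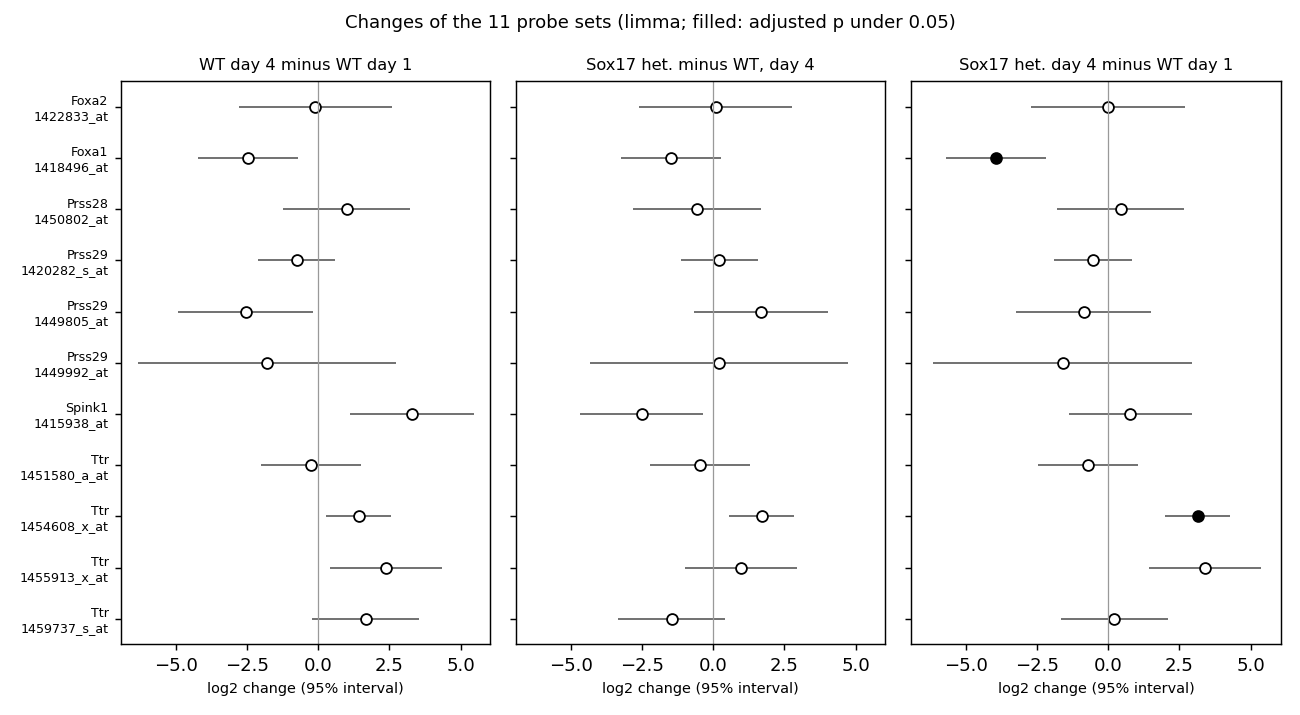
Log2 change of each of the 11 probe sets in the 3 contrasts, with the 95% interval from limma (n = 2 arrays per group). Filled points passed an adjusted p under 0.05. Only Foxa1 and the Ttr probe set 1454608_x_at did so, both in the contrast of heterozygous day 4 with WT day 1.

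No difference in Foxa2 between groups passed the test. Its probe set 1422833_at read 62.8 and 126 in WT on day 1, 220 and 31.1 in WT on day 4, and 77.6 and 101 in heterozygotes. The highest and the lowest of the 6 values were both in the WT day 4 pair, 7.09-fold apart, and the other 4 arrays lay between them. The log2 change was -0.10 ± 1.01 (SE, n = 2 arrays per group, adjusted p = 0.966 in limma) for WT day 4 minus day 1, with a 95% interval from -2.78 to 2.59. For heterozygous minus WT on day 4 it was 0.09 ± 1.01, with an interval from -2.60 to 2.78 (limma adjusted p = 0.972). Intervals this wide leave room for a change of several fold in either direction. The value above 200 was on array 277, and it was 171 after quantile normalization, so Foxa2 passed 200 on 0 arrays on that scale. Without array 284 the change with day was 1.30, and without array 277 it was -1.49. Foxa2 read above all 43 olfactory receptor probe sets on 4 arrays, above 93.0% of them on array 302 and above 69.8% on array 284.

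Foxa1 was brightest on day 1 and dimmest in heterozygotes. Its probe set 1418496_at read 307 and 118 in WT on day 1, 53.2 and 21.2 in WT on day 4, and 11.1 and 11.9 in heterozygotes. No groups overlapped. Foxa1 fell between WT day 1 and heterozygous day 4, with a log2 change of -3.93 ± 0.66 (n = 2 arrays per group, 95% interval -5.68 to -2.18, limma adjusted p = 0.0474), or 15.2-fold on the scale of signal plus 1. The change within WT from day 1 to day 4 was -2.46 ± 0.66 and did not pass (limma adjusted p = 0.0994). Quantile normalization took it past the threshold (-2.87, adjusted p = 0.0344). The heterozygous minus WT change on day 4 was -1.47 ± 0.66 (95% interval -3.22 to 0.28, limma adjusted p = 0.463) and -0.80 after quantile normalization. The heterozygous day 4 minus WT day 1 call ended without array 302, 303, 253 or 281 (adjusted p = 0.197, 0.135, 0.226 and 0.233), and in these fits 0 probe sets of the array passed. It also could not be tested above a mean signal of 200, which Foxa1 did not reach. On day 1 Foxa1 read above all 43 olfactory receptor probe sets, and on the 4 day 4 arrays above 39.5% to 53.5% of them. In these mixed preparations, fewer cells of a type and less RNA per cell cannot be told apart.

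Some markers of stroma and smooth muscle were ordered by group as Foxa1 was. The summed signal of 8 stroma markers was 3047 and 7477 on day 1, 1522 and 2585 in WT on day 4, and 395 and 792 in heterozygotes. On day 1, 4 of the 8 were above 200, namely Dcn (1318 and 3243), Col3a1 (648 and 2319), Lum and Vim, and these carried the order of the sum. The other 4, Pdgfra, Hand2, Col1a1 and Hoxa11, were below 200 on all arrays and had their highest group mean in WT on day 4. Within day 1, array 303 had the higher stroma sum and the lower Foxa1 signal. Of the 8 stroma markers, 0 fell with day in WT, against 4.58% of all genes. Between WT day 1 and heterozygous day 4, 1 fell, Lum (-2.78 ± 0.31, limma adjusted p = 0.0237), against 3.35% of all genes. The 6 smooth muscle markers summed to 893 and 891 on day 1, 392 and 309 in WT on day 4, and 190 and 172 in heterozygotes. Not all of them had this order. Actg2 had its highest group mean in WT on day 4 (53.9, against 41.6 on day 1 and 2.97 in heterozygotes). Cnn1 had its highest in heterozygotes (8.81, against 2.96 on day 1 and 5.87 in WT on day 4). Of the 6, 1 fell with day in WT, against 4.58% of all genes. It was Acta2, a smooth muscle actin gene (505 and 504 to 143 and 191, -1.60 ± 0.25, limma adjusted p = 0.0336). Between WT day 1 and heterozygous day 4, 2 fell, Acta2 and Actg2, against 3.35% of all genes. The part of stroma or muscle in the Foxa1 values was not tested.

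The third FOXA gene, Foxa3, a liver and gut factor, read 27.0 to 67.5 over the 6 arrays (log2 change 0.18 ± 0.57 with day and -0.17 ± 0.57 with genotype, limma adjusted p = 0.871 and 0.907). Among 18 measured forkhead genes outside the gland set, 0 passed in any of the 3 contrasts in limma, against 10.5%, 0% and 7.15% of the brightest probe sets of all genes. At an unadjusted p under 0.05 the counts were 2, 3 and 6 of 18, against 26.7%, 12% and 22.7% of all probe sets. Their median log2 change with day was -0.04, against 0.30 over all genes.

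The upstream windows of the FOXA genes were searched for a forkhead core, TGTTTAC, since FOXA factors bind such motifs. Windows were read from RefSeq's promoter table (GRCm38.p6) for 4 of the 6 genes, all but Ttr and Spink1, with 3 alternative starts for Foxa2. In the 250 bases before each start, the forkhead core was in the Foxa1 window, as GTAAACA on the strand of the gene 141 bases before the start. It is shown because Foxa1 was the FOXA gene that passed a test, with the match in capitals and its position chr12:57546216-57546282 on the minus strand.
Foxa1: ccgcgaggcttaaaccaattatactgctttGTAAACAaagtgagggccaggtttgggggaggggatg
The motif, on either strand, was in 3.17% of the 32851 windows of this length. It was not in the 3 Foxa2 windows or those of Prss28 and Prss29. A SOX core, ATTGTT on either strand, present in 9.42% of all windows, was in none of these 6 windows. A match describes letters and is not a binding site.

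**Figure D3:**
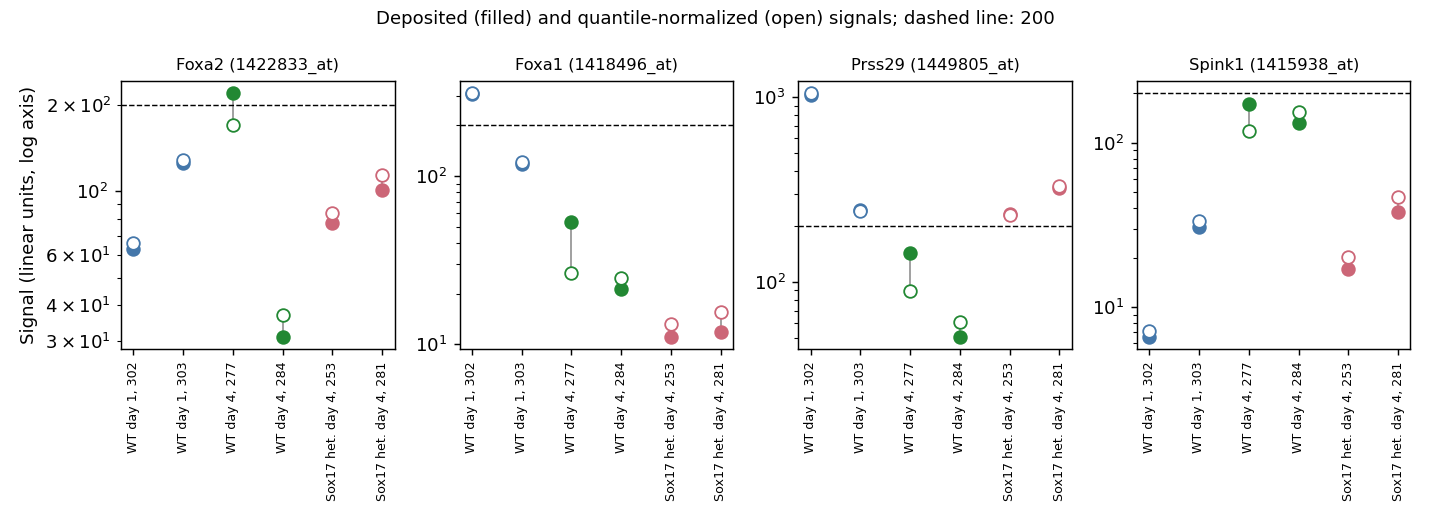
Signals of Foxa2, Foxa1, Prss29 and Spink1 (1 probe set each, linear units, log axis) on the 6 arrays, as deposited (filled) and after quantile normalization (open). The scaling moves array 277 most: Foxa2 goes from 220 to 171, below the dashed line at 200, and Spink1 from 173 to 118.

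Prss28 and Prss29 lie next to each other in RefSeq's gene order, between Prss34 and the tryptase genes Tpsb2 and Tpsg1, and encode related secreted proteases. Of the pair, Prss29 passed a signal of 200 and Prss28 did not. The 250 bases before their starts are shown because the sequences are alike, although signals of different probe sets cannot be set against each other. In a global alignment, 159 of 241 aligned bases were identical (66.0%), and capitals mark the 2 shared runs of at least 10 bases, each 15 long. The windows are chr17:25308396-25308645 for Prss28 and chr17:25318404-25318653 for Prss29, both on the plus strand.
Prss28: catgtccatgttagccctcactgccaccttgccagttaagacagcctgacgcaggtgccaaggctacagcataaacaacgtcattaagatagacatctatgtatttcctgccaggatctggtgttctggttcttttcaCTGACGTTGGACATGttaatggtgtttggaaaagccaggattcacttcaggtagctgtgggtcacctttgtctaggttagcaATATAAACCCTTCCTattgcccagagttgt
Prss29: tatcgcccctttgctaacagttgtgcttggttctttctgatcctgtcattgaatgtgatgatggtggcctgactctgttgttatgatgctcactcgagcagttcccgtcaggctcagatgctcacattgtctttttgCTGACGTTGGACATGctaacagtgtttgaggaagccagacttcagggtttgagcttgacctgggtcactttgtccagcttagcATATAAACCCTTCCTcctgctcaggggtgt
The second run holds TATAAA, the core of a TATA box, which begins 29 bases before the start of both genes. On either strand, these letters were in 12.4% of all windows. The other run, CTGACGTTGGACATG, begins 112 bases before the Prss28 start and 113 before that of Prss29.

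Prss29 was highest on day 1 and lowest in WT on day 4 at its brightest probe set. Probe set 1449805_at read 1036 and 244 in WT on day 1, 144 and 50.5 in WT on day 4, and 235 and 325 in heterozygotes. Both day 1 and both heterozygous arrays were above both WT day 4 arrays, and the day 1 and heterozygous groups overlapped. The day 4 minus day 1 change in WT was -2.54 ± 0.89 (n = 2 arrays per group, 95% interval -4.91 to -0.18) and did not pass in limma's default fit (adjusted p = 0.165). It passed with an intensity trend (adjusted p = 0.0144) and among probe sets with a mean signal of at least 200 (adjusted p = 0.0334). The pair on day 1 differed 4.25-fold, against a median of 1.15-fold for probe sets with a mean of at least 200. The heterozygous minus WT change on day 4 was 1.68 ± 0.89 (95% interval -0.68 to 4.05, limma adjusted p = 0.503). Heterozygous day 4 against WT day 1 gave -0.86 ± 0.89 (limma adjusted p = 0.657), and 0.18 without array 302.

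The other Prss29 probe sets did not give the same picture. Probe set 1449992_at read 78.8 and 48.1 on day 1, 89.8 and 2.59 in WT on day 4, and 9.55 and 39.6 in heterozygotes. Its WT day 4 arrays differed 34.7-fold, and its change with day was -1.79 ± 1.71 (limma adjusted p = 0.560). Probe set 1420282_s_at, whose suffix marks probes that several transcripts can share, stayed between 1.58 and 5.58 on all 6 arrays. The sign of the change with day was negative at all 3 probe sets, and that of heterozygous minus WT positive at all 3 (0.20 ± 1.71 and 0.21 ± 0.51 at the dimmer probe sets). With a pseudocount of 32 the latter was -0.25 at 1449992_at.

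Prss28 was dim on all 6 arrays. Its probe set 1450802_at read 4.25 and 4.00 on day 1, 22.4 and 3.48 in WT on day 4, and 4.63 and 7.54 in heterozygotes, below most olfactory receptor probe sets on all arrays (above 14.0% to 32.6% of them). The highest value was on array 277 and became 10.6 after quantile normalization. Changes were 1.00 ± 0.84 with day and -0.56 ± 0.84 with genotype (limma adjusted p = 0.511 and 0.789), and the latter was 0.14 after quantile normalization.

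Among 18 other measured serine proteases of the tryptase, PRSS and transmembrane kinds, 1 rose and 2 fell between day 1 and day 4 in WT (5.96% of all genes rose and 4.58% fell), with a median log2 change of 0.71. The membrane protease gene Tmprss4 fell from 9214 and 10274 to 470 and 610 (-4.18 ± 0.25, limma adjusted p = 0.00815). Prss22 fell from 1687 and 1231 to 277 and 153 (-2.80 ± 0.40, limma adjusted p = 0.0274). Tpsg1, the neighbour of Prss29 beyond Tpsb2, rose from 11.3 and 21.8 to 74.6 and 59.6 (2.02 ± 0.38, limma adjusted p = 0.0485), all below 200. Between heterozygotes and WT on day 4, 0 of the 18 passed in limma (3 at an unadjusted p under 0.05, against 12% of all probe sets). The other neighbour, Tpsb2, a mast cell tryptase, read 7.88 to 80.8 and the 6 mast cell markers summed to 140 to 202 on 5 arrays and 573 on array 277.

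Spink1 was highest in WT on day 4. SPINK1 blocks trypsin-like proteases. Its probe set 1415938_at read 6.59 and 30.6 on day 1, 173 and 131 in WT on day 4, and 17.1 and 38.1 in heterozygotes. Both WT day 4 arrays were above the other 4, and the day 1 and heterozygous groups overlapped. The change with day in WT was 3.30 ± 0.82 (n = 2 arrays per group, 95% interval 1.13 to 5.46), and it did not pass in limma's default fit (adjusted p = 0.0841). It passed with an intensity trend (adjusted p = 0.0299) and with a pseudocount of 32 (1.90, adjusted p = 0.0153). The heterozygous minus WT change was -2.51 ± 0.82 (95% interval -4.68 to -0.35) and did not pass (limma adjusted p = 0.376, and 0.227 with an intensity trend). Unlike the Foxa2 value, the high Spink1 values were on both WT day 4 arrays: without array 277 the changes were 3.10 with day and -2.32 with genotype. Quantile normalization gave 118 and 154 on the WT day 4 arrays. Spink1 read above 90.7% and 100% of the olfactory receptor probe sets on these arrays and above 25.6% to 83.7% on the other 4.

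Spink1 is also a gene of the pancreas, and pancreatin was used to separate the tissue. The 5 measured acinar pancreas markers summed to 488 and 156 in WT on day 4 and to 108 to 255 on the other 4 arrays, and 0 of 5 passed 200 on any array. Among them, Cpb1, a pancreatic carboxypeptidase gene, had the group order of Spink1 by mean, at 3.0 and 1.26 on day 1, 137 and 21.0 in WT on day 4, and 12.5 and 2.11 in heterozygotes. Its change was 4.20 ± 1.18 with day and -3.09 ± 1.18 with genotype (limma adjusted p = 0.109 and 0.419). The amylase gene Amy1 read 25.2 and 42.5, 96.3 and 97.2, and 97.1 and 55.3 in the same order (1.53 ± 0.42 with day, limma adjusted p = 0.101). Cpa1, Cela1 and Ctrb1 had overlapping values on day 1 and in WT on day 4. Some markers of other cells were also high in WT on day 4. The macrophage gene C1qa read 8.91 and 17, 171 and 84.6, and 8.61 and 3.68 in the same order, and it rose with day (3.18 ± 0.60, limma adjusted p = 0.0476; -4.18 ± 0.60 with genotype, adjusted p = 0.203). The sum of the 5 macrophage markers was instead highest on day 1, at 22303 and 20788, against 15179 and 16040 in WT on day 4 and 12709 and 13339 in heterozygotes, and Cd14 and Cd68 made up most of it. The endothelial gene Pecam1 read 2.42 and 7.66, 121 and 62.9, and 4.95 and 47.9 (4.02 ± 1.17 with day, limma adjusted p = 0.116). The other endothelial markers, Cdh5, Kdr, Tek and Emcn, had overlapping values on day 1 and in WT on day 4. The 5 endothelial markers summed to 588 on array 277 and 217 on array 284 in WT on day 4, and to 133 to 188 on the other 4 arrays. These marker genes were named after their values were seen, and the part of pancreatin, macrophages or endothelium in the Spink1 values was not tested.

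Of 6 other measured SPINK genes, 1 rose with day in WT and 0 fell, where 5.96% of all genes rose and 4.58% fell. Spink8 rose from 61.9 and 94.5 on day 1 to 1030 and 738 on day 4 (3.49 ± 0.34, limma adjusted p = 0.0138), and it read 2276 and 1917 in heterozygotes (1.26 ± 0.34 against WT, limma adjusted p = 0.325). Its heterozygous values were above, and those of Spink1 below, the WT day 4 values. Spink12 read 9516 and 10706 on day 1, 281 and 62.3 in WT on day 4 and 2.78 and 56.0 in heterozygotes. Its change with day did not pass (-6.24 ± 1.50, limma adjusted p = 0.0797), while it fell between WT day 1 and heterozygous day 4 (-9.43 ± 1.50, limma adjusted p = 0.0429).

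The 4 Ttr probe sets did not move together. Ttr is a classical target of FOXA factors in the liver. The brightest, 1459737_s_at, read 36.2 and 14.9 on day 1, 134 and 43.3 in WT on day 4, and 29.9 and 25.0 in heterozygotes. Both WT day 4 arrays were above the other 4, and the changes were 1.67 ± 0.71 with day and -1.45 ± 0.71 with genotype (limma adjusted p = 0.228 and 0.481). After quantile normalization the WT day 4 values were 79.4 and 51.6. This probe set thus had the order of groups that Spink1 had, at signals above 48.8% to 83.7% of the olfactory receptor probe sets.

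At 2 other Ttr probe sets, both with the suffix that marks probes that can bind similar transcripts, heterozygotes read higher than day 1. Probe set 1454608_x_at read 0.752 and 1.65 on day 1, 7.11 and 3.16 in WT on day 4, and 18.5 and 17.4 in heterozygotes. Its change from WT day 1 to heterozygous day 4 passed (3.14 ± 0.43, limma adjusted p = 0.0324), on signals that were all below 20 and that exceeded at most 53.5% of the olfactory receptor probe sets. With a pseudocount of 32 it was 0.59 and did not pass (adjusted p = 0.121), nor did it pass with an intensity trend (adjusted p = 0.0586) or without array 302, 303, 253 or 281 (adjusted p = 0.145 to 0.197). Probe set 1455913_x_at read 0.289 and 1.40 on day 1, 4.57 and 14.3 in WT on day 4, and 27.7 and 10.8 in heterozygotes (3.39 ± 0.74 against day 1, limma adjusted p = 0.0797). The last, 1451580_a_at, read 9.11 and 7.84, 12.0 and 3.90, and 2.78 and 7.87 in the same order, and its groups overlapped in all 3 contrasts.

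Genes of the proteins that work with TTR differed in course. Rbp4, the retinol carrier that TTR binds, read 49.1 and 74.9 on day 1, 104 and 46.7 in WT on day 4, and 1.67 and 31.6 in heterozygotes (0.20 ± 1.29 with day, limma adjusted p = 0.943). The retinol transporter gene Stra6 read 15.1 and 35.6, 48.5 and 247, and 150 and 141 in the same order (2.19 ± 0.89 with day, limma adjusted p = 0.214). Of 13 measured genes of retinol and thyroxine transport, 1 rose with day in WT and 1 fell (5.96% of all genes rose and 4.58% fell), with a median of 0.91. Lrp2, which takes up retinol-binding protein, was the riser (9.41 ± 0.29, limma adjusted p = 0.00677). Crabp2, which carries retinoic acid, fell from 732 and 624 to 78.5 and 27.0 (-3.84 ± 0.67, limma adjusted p = 0.0416) and read 1239 and 548 in heterozygotes (4.13 ± 0.67 against WT, limma adjusted p = 0.218). Liver and visceral endoderm markers, read because both tissues make Ttr, summed to 63.5 to 171 on 5 arrays and 395 on array 277, with 0 of 5 above 200.

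Other genes of the gland did not follow one course either. Of 12, 1 rose and 4 fell with day in WT, where 5.96% of all genes rose and 4.58% fell. Their median log2 change was -0.69, against 0.30 over all genes, and 9 passed a signal of 200 somewhere. The 12 include Foxj1, which is counted also among the forkhead genes above and the oviduct and ciliated cell markers below. The retinaldehyde dehydrogenase Aldh1a1 rose from 109 and 130 to 452 and 438 (1.89 ± 0.28, limma adjusted p = 0.0289), and read 1145 and 817 in heterozygotes (1.12 ± 0.28 against WT, limma adjusted p = 0.301). The transcription factor Sox9 fell from 1289 and 2027 to 129 and 72.4 (-4.05 ± 0.43, limma adjusted p = 0.0159), and the ligand gene Wnt7b fell from 1751 and 1383 to 269 and 178 (-2.83 ± 0.36, limma adjusted p = 0.0228). Lif, the cytokine made by glands before implantation and a target of FOXA2 action there, read 5297 and 5574 on day 1 and 82.0 and 109 in WT on day 4 (-5.83 ± 0.42, limma adjusted p = 0.0105). Cxcl15, a chemokine of the glands, read 61.0 and 29.7, 166 and 59.7, and 112 and 177 across the 3 groups and stayed below 200, like Spink1 and Ttr.

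**Figure D4:**
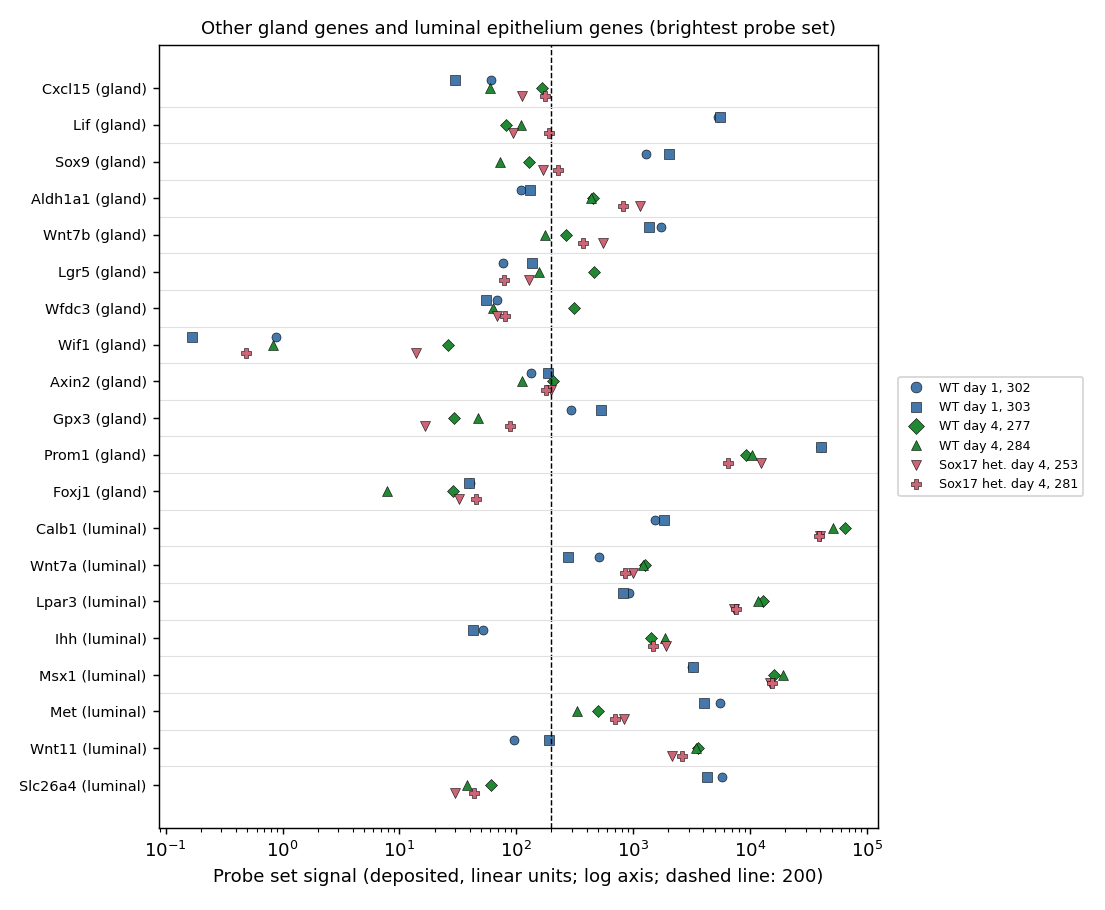
Signals (linear units, log axis) of 12 other gland genes and 8 luminal epithelium genes, each by its brightest probe set, on the 6 arrays. Luminal genes such as Calb1 and Lpar3 lie farther to the right on day 4 than on day 1, while the luminal genes Slc26a4 and Met lie farther to the left. The gland chemokine Cxcl15 stays left of the dashed line at 200 on every array.

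Most genes of the luminal surface changed with day. Of 8 measured, 5 rose and 2 fell in WT (10.5% of all genes passed), with a median of 3.14. The calcium-binding protein gene Calb1 rose to 65174 and 51482 (5.11 ± 0.25, limma adjusted p = 0.00708), and the lysophosphatidic acid receptor gene Lpar3 to 13019 and 11638 (3.83 ± 0.22, limma adjusted p = 0.00806). Slc26a4 fell from 5828 and 4326 to 60.3 and 37.6 (-6.69 ± 0.38, limma adjusted p = 0.00806). The other gene that fell, named after its values were seen, was Met (5524 and 4055 to 498 and 331, -3.54 ± 0.33, limma adjusted p = 0.0133). Wnt7a, a luminal ligand needed for gland formation, read 511 and 275 on day 1 and 1256 and 1206 on day 4 (1.71 ± 0.37, limma adjusted p = 0.0636).

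Of 21 genes of gland formation, 6 rose and 1 fell with day in WT (median 0.71), against 5.96% and 4.58% of all genes (median 0.30). Of the 21, 0 passed between heterozygotes and WT on day 4 in limma (3 at an unadjusted p under 0.05, against 12% of all probe sets), and 5 rose and 0 fell between WT day 1 and heterozygous day 4, against 3.80% and 3.35% of all genes. Sox17 rose with day (2.09 ± 0.22 and 3.07 ± 0.23 at its 2 probe sets, limma adjusted p = 0.0152 and 0.0106). In heterozygotes it read 30189 and 28810 against 34794 and 35060 in WT at the first, and 13304 and 13061 against 22781 and 18473 at the second (limma adjusted p = 0.654 and 0.407). The labels do not say where these probes lie relative to the GFP insertion. The WNT genes Fzd6 (2.71 ± 0.23), Wnt11 (4.69 ± 0.40) and Wnt5a (2.66 ± 0.27) rose with day, with limma adjusted p = 0.0116, 0.0118 and 0.0147. Pgr, the progesterone receptor gene, rose (2.72 ± 0.52, limma adjusted p = 0.0493), and Esr1, the estrogen receptor gene, did not pass (0.39 ± 0.31, limma adjusted p = 0.483). The gene that fell, named after its values were seen, was Wnt4 (-4.31 ± 0.51, limma adjusted p = 0.0201).

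The labelled tissue bore the marks of epithelium: all 8 epithelial markers were above 200 on all arrays, with summed signals of 145967 to 161644. Of the 8 gland markers, which include 5 of the 6 genes described here, 1 to 3 were above 200 on any array, with sums of 830 to 2606. The oviduct glycoprotein gene Ovgp1 read 165 and 288 on day 1, 5497 and 7309 in WT on day 4 and 20932 and 10977 in heterozygotes. The other 4 oviduct and ciliated cell markers, Foxj1 among them, stayed below 200. Of the 5, 2 rose with day in WT and 0 fell, where 5.96% of all genes rose and 4.58% fell. They were Ovgp1 (4.86 ± 0.48, limma adjusted p = 0.0138) and Dnah5 (40.6 and 29.8 to 157 and 130, 2.01 ± 0.27, limma adjusted p = 0.0246). Dnah5, named after its values were seen, read 53.5 and 56.5 in heterozygotes (-1.36 ± 0.27 against WT, limma adjusted p = 0.255). Whether oviduct cells had a part in the gland values was not tested.

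For the 3 genes that passed 200, the 9105 other genes with a mean signal of at least 200 were ranked by likeness of profile. The measure was the root mean square difference of log2 signals over the 6 arrays, each profile centred on its own mean. Nearest to Foxa1 were Ifit3 (0.28), Glipr1 (0.33) and Il1f9 (0.33), against a spread of 1.71 in Foxa1 itself. Ifit3 read 3208 and 1345 on day 1, 404 and 143 in WT on day 4, and 106 and 127 in heterozygotes. Nearest to Foxa2, whose own spread was 0.86, were Golga7b (0.40), Zfp282 (0.45) and Tmem87a (0.46), all highest on array 277 and lowest on array 284. Nearest to Prss29, with a spread of 1.30, were Mcc, Armcx3 and Metrnl, each at 0.62 and each lowest on array 284.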

How the data were processed

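The authors deposited 1 linear signal (intensity) per probe set for each 1-colour Affymetrix array. Of software, the submitters' processing notes give RMA and 2 Affymetrix consoles (Expression and Transcriptome Analysis), without versions or roles. RMA's usual output is log2, these values are linear, and each array had a 2% trimmed mean of 500. Of 45101 probe sets, 34945 had 1 gene symbol in the platform annotation and were used, against 932 with several symbols, 9160 without one listed and 64 control probe sets.

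Log2(signal + 1) was fitted with limma 3.58.1 (R 4.3.3), on all 6 arrays with 1 term for each group, leaving 3 residual degrees of freedom. Errors after ± are standard errors, and intervals are 95%. Exact permutation of 2 against 2 arrays has a smallest two-sided p of 0.333 and was not run. The fit was tested only on simulated data with the same spread for every probe set. That test does not cover the wider spread of dim probe sets. Within the WT day 4 pair, the median difference was 2.56-fold at a mean signal under 200, against 1.24-fold at 200 or more. Adding 1 to each signal makes folds of dim genes smaller, but these folds depend on the pseudocount and are not lower bounds. For Ttr 1454608_x_at, the log2 change from WT day 1 to heterozygous day 4 was 3.14 with a pseudocount of 1 and 0.59 with 32. The number of arrays limits the precision.

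The members, gene lists and tests were chosen with earlier results of these data known. Named are all members, at most 4 passing genes per list by smallest p, 13 further genes fixed by name, and the 3 nearest profiles. For list genes, the probe set of highest mean log2 signal was used. The shares beside their counts at an unadjusted p are over all probe sets, dimmer ones of the same genes included. The 43 olfactory receptor probe sets were added after the values were seen. Upstream windows were aligned with Biopython 1.88. Sequences from chromosome 18, which holds Ttr and Spink1, are not analysed here. Alternatives were quantile normalization, centring on the median, a pseudocount of 32, a minimum mean signal of 200, an intensity trend, 1 probe set per gene, an adjusted p of 0.10, leaving out each array, and signal thresholds of 100 and 500.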

Additional observations from a re-analysis of the deposited data

How the results depend on the processing

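No paired analysis was possible because the groups share no replicate numbers. For WT day 4 minus day 1, limma called 0 of the 11 gland probe sets. It called 1 after quantile normalization (Foxa1), 1 with a pseudocount of 32 (Spink1), 1 above a mean signal of 200 (Prss29), 2 with an intensity trend and 2 at an adjusted p of 0.10. For heterozygous day 4 minus WT day 1 it called 2, and 1 with a pseudocount of 32, an intensity trend or 1 probe set per gene, and 0 above a mean signal of 200; leaving out an array gave 0 to 2. Over the whole array, the first contrast had 3210 calls, and 5392 with the pseudocount of 32, 6468 above a mean of 200, 7249 with a trend, 5763 at 0.10 and 0 to 3142 without an array. Heterozygous minus WT had 0, and 491 above a mean of 200 and 829 with a trend, while 0 gland probe sets passed in any fit. Heterozygous day 4 minus WT day 1 had 2122, and 4161, 5440, 5988 and 4181 in the same order, and 0 to 2632 without an array. The share of higher calls with day was 54.9%, and 42.8% after centring on the median. A threshold of 100 was passed by 5 of the 6 genes and a threshold of 500 by 1.

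Signs turned for some changes that no fit called; the cause was not tested. A lone array left in a group is taken to vary like the other groups, and these fits have fewer arrays. Heterozygous minus WT was 0.14 for Prss28 and 0.27 for Ttr 1451580_a_at after quantile normalization, and with a pseudocount of 32 it was -0.062 for Foxa2 and -0.25 for Prss29 1449992_at. Foxa2 was 0.042 with day at that pseudocount, and 0.088 (quantile) and 0.053 (centring) for heterozygous day 4 minus WT day 1. Leaving out an array turned signs in these cases. With day, Foxa2 ranged from -1.49 to 1.30, Prss28 from -0.20 to 2.19, Prss29 1449992_at from -4.12 to 0.54 and Ttr 1451580_a_at from -0.95 to 0.46. For heterozygous minus WT, Foxa2 ranged from -1.30 to 1.48, Prss28 from -1.75 to 0.63, Prss29 1420282_s_at from -0.39 to 0.81, Prss29 1449992_at from -2.13 to 2.53 and Ttr 1451580_a_at from -1.16 to 0.24. For heterozygous day 4 minus WT day 1, Foxa2 ranged from -0.51 to 0.49, Prss29 1449805_at from -1.90 to 0.18, Spink1 from -0.25 to 1.81 and Ttr 1459737_s_at from -0.39 to 0.83. Of the 186 values under the scalings, filters and fits, 169 kept their sign and side of the threshold, and 7 turned sign. The rest kept their sign but crossed the threshold: 8 came to pass and 2 no longer passed.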
